A study of Mus musculus with 8 samples.

Results

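Aminoacyl-tRNA synthetases are the enzymes that attach each amino acid to its transfer RNA, and their genes were followed here in the gastrocnemius, a calf muscle, of mice with and without a tumour. The members were a list of 20 synthetase genes whose enzymes work in the cytosol and 16 whose enzymes work in mitochondria. A gene was kept when it had a row in every deposited table and passed edgeR's filterByExpr, a filter on low counts. All 36 were kept, out of 23282 rows in each table, of which 13174 passed the filter.

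Messenger RNA was measured by sequencing transcript 3′ ends in 8 libraries from C57BL/6 mice with a listed age of 4 weeks. By their titles, the 2 RP libraries came from mice carrying Lewis lung carcinoma, a transplanted tumour line grown under the skin. These mice then received Paeonia lactiflora (peony) extract, made in 30% ethanol, at 100 mg/kg by mouth each day for 2 weeks. The 3 Control libraries came from tumour-bearing mice given water instead, and the 3 Normal libraries from mice injected with saline and given water. Strain and muscle were the same in all groups, and the labels name no transgene. By these labels RP mice differed from Control mice in receiving extract in place of water, and from Normal mice in both tumour and extract.

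The labels of 6 libraries conflict. The tables of the Control and Normal samples carry the other group's name in their headers, and libraries were grouped here by title. If the table names hold, every Control minus Normal change takes the opposite sign and the RP comparisons with Control and with Normal exchange places. The labels do not say whether libraries came from separate animals, so p-values cover only the spread among these libraries, which may be technical.

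Libraries held between 9528011 and 12333767 counts, and the 36 synthetase genes took between 0.125 and 0.150% of them. Defining muscle fibre markers, 7 of 7 detected, summed to 117577 to 120660 CPM (counts scaled to a common library size after TMM normalization) in RP, 96423 to 116076 CPM in Control and 73990 to 100559 CPM in Normal libraries. Markers of other cells moved with the titled groups. Haemoglobin genes took 0.862 and 3.83% of counts in the RP libraries, 1.41 to 1.61% in Control and 4.57 to 19.7% in Normal libraries. The 14 neutrophil markers summed to 42.2 and 523 CPM in RP, 16.8 to 29.2 CPM in Control and 979 to 2014 CPM in Normal libraries. Ltf, Mpo and Elane were at 0 in every Control library and Mpo and Elane in both RP libraries. Of the erythroid markers, 10 of 12 had a row and none was at 0 throughout a group. The 10 fibroblast and tendon markers summed to 8024 and 8390 CPM in RP, 9259 to 10131 CPM in Control and 5350 to 8622 CPM in Normal libraries. Of these, 6 passed as higher in Control minus Normal (median log2 change 1.59), beside 4.99% of all genes. The 7 Schwann cell markers summed to 466.2 and 250.4 CPM in RP, 711.2 to 1382 CPM in Control and 542.8 to 765.2 CPM in Normal libraries. Their RP minus Control change was negative in all 7 (median −1.16), and 1 passed as lower, beside 0.0304% of all genes. Summed satellite cell markers were 26.3 and 27.7 CPM in RP, 21.3 to 27.6 CPM in Control and 38.1 to 54.8 CPM in Normal libraries. Summed macrophage and endothelial markers overlapped between Control and Normal, though 2 of 8 endothelial markers passed as lower in Control, beside 5.45% of all genes. Endothelial sums in RP (414.1 and 370.4 CPM) lay below those in Normal libraries (439.9 to 505.3 CPM). The part of these markers in the results on synthetases was not tested. Hba-a1, a haemoglobin gene, was a covariate in an alternative fit. Haemoglobin shares of Normal libraries did not overlap those of Control or RP. That fit therefore cannot tell haemoglobin from group in contrasts with Normal. In whole muscle, fewer cells of a type and less RNA per cell cannot be told apart.

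Charging proceeds by the same chemistry in both compartments, but nearly every mitochondrial enzyme has its own nuclear gene, marked by a final 2 in its symbol. Gars and Kars each supply the glycyl and the lysyl enzyme to both compartments, and mitochondria charge glutamine by amidating misacylated glutamate instead of using an enzyme of their own. Several cytosolic enzymes sit in a multi-synthetase complex held together by scaffold proteins. When charged tRNA runs short, the kinase GCN2 phosphorylates the initiation factor eIF2alpha, translation of the transcription factor ATF4 goes up, and ATF4 activates genes for amino acid transport, amino acid synthesis and many cytosolic synthetases.

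Upstream sequences of members were read because ATF4, paired with C/EBP proteins, binds the letters TGATGNAA, the core of the amino acid response element. RefSeq promoter tables (GRCm38.p6, the patch release of mm10) held a window for 26 of the 36 members, 12 cytosolic and 14 mitochondrial. The cytosolic genes without a window were Cars, Hars, Lars, Mars, Nars, Rars, Vars and Wars. In the 250 bases before the RefSeq start site, the core was present on either strand in 3 of 12 cytosolic genes, Aars, Gars and Tars, and in 0 of 14 mitochondrial genes. It was present in 3.452% of all 32851 windows of that length. The Aars window (chr8:111033592-111033841) lies inside the gene's span in the GENCODE M21 annotation, which starts at 111033144. The Aars match is thus upstream of the RefSeq start used here but not of the GENCODE start. The cyclic AMP response element TGACGTCA, searched likewise, was in 0 of the 12 and 0 of the 14, against 1.546% of all windows, so the motifs overlapped in no member. Matches of letters describe these windows, and binding was not measured. The stretches around the 3 matches are shown 5′ to 3′ in the direction of the gene, with the core in capitals as it reads on that strand (the reverse complement of the motif).
Aars, chr8:111033704-111033763, plus strand: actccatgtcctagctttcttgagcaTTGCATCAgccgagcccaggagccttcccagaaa
Gars, chr6:55037941-55038000, plus strand: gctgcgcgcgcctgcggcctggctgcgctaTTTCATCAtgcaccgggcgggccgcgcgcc
Tars, chr15:11399659-11399718, minus strand: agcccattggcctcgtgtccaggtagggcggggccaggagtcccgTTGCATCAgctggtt

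The windows of Eprs and Sars2, members that differed between groups as described next, hold neither motif. Vars, which also differed, had no window. The Eprs and Sars2 windows are shown whole for comparison, in lower case because nothing in them was matched.
Eprs, chr1:185362794-185363043, plus strand: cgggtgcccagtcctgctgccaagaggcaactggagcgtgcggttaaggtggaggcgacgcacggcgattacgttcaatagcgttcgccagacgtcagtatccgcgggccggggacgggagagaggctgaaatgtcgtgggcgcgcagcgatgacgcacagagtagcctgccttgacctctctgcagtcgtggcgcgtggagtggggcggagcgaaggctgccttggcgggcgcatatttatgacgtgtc
Sars2, chr7:28741718-28741967, plus strand: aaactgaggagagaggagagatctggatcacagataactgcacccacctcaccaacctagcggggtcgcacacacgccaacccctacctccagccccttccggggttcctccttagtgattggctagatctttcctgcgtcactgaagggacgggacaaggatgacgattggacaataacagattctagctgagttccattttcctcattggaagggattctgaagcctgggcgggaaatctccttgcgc

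The comparison of Control with Normal libraries addressed the tumour. Cytosolic synthetase genes were mostly at lower levels in Control libraries, and mitochondrial ones mostly at slightly higher levels, but few single genes passed the test. Eprs and Vars were lower in Control than in Normal libraries, 1.53-fold and 1.74-fold, and Sars2 was 2.31-fold higher. With edgeR's quasi-likelihood test, adjusted by Benjamini-Hochberg over all 13174 genes, 0 of 20 cytosolic members were higher and 2 lower, and 1 of 16 mitochondrial members was higher and 0 lower. The share of all tested genes that passed was 10.4%, 4.99% higher and 5.45% lower, so the counts of 2 of 20 and 1 of 16 stand near the background. At an unadjusted p under 0.05 there were 8 of 20 cytosolic and 2 of 16 mitochondrial members, beside 26.3% of all tested genes.

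The direction over each class was less even than the calls. The log2 change was negative in 19 of 20 cytosolic members, with a median of −0.28 and a range of −0.80 to 0.29 (16 to 19 negative over the alternatives), and positive in 11 of 16 mitochondrial members, with a median of 0.15 and a range of −0.56 to 1.21. Over all tested genes 50.1% were positive and 49.9% negative, and the median was 0.000427. Control and Normal libraries did not overlap in 11 cytosolic members with lower Control levels and in 1, Yars, with higher ones, beside 14.7% and 16.6% of all genes. Among mitochondrial members they did not overlap in 3 with higher and 0 with lower Control levels. The difference between the classes was not tested.

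**Figure D1:**
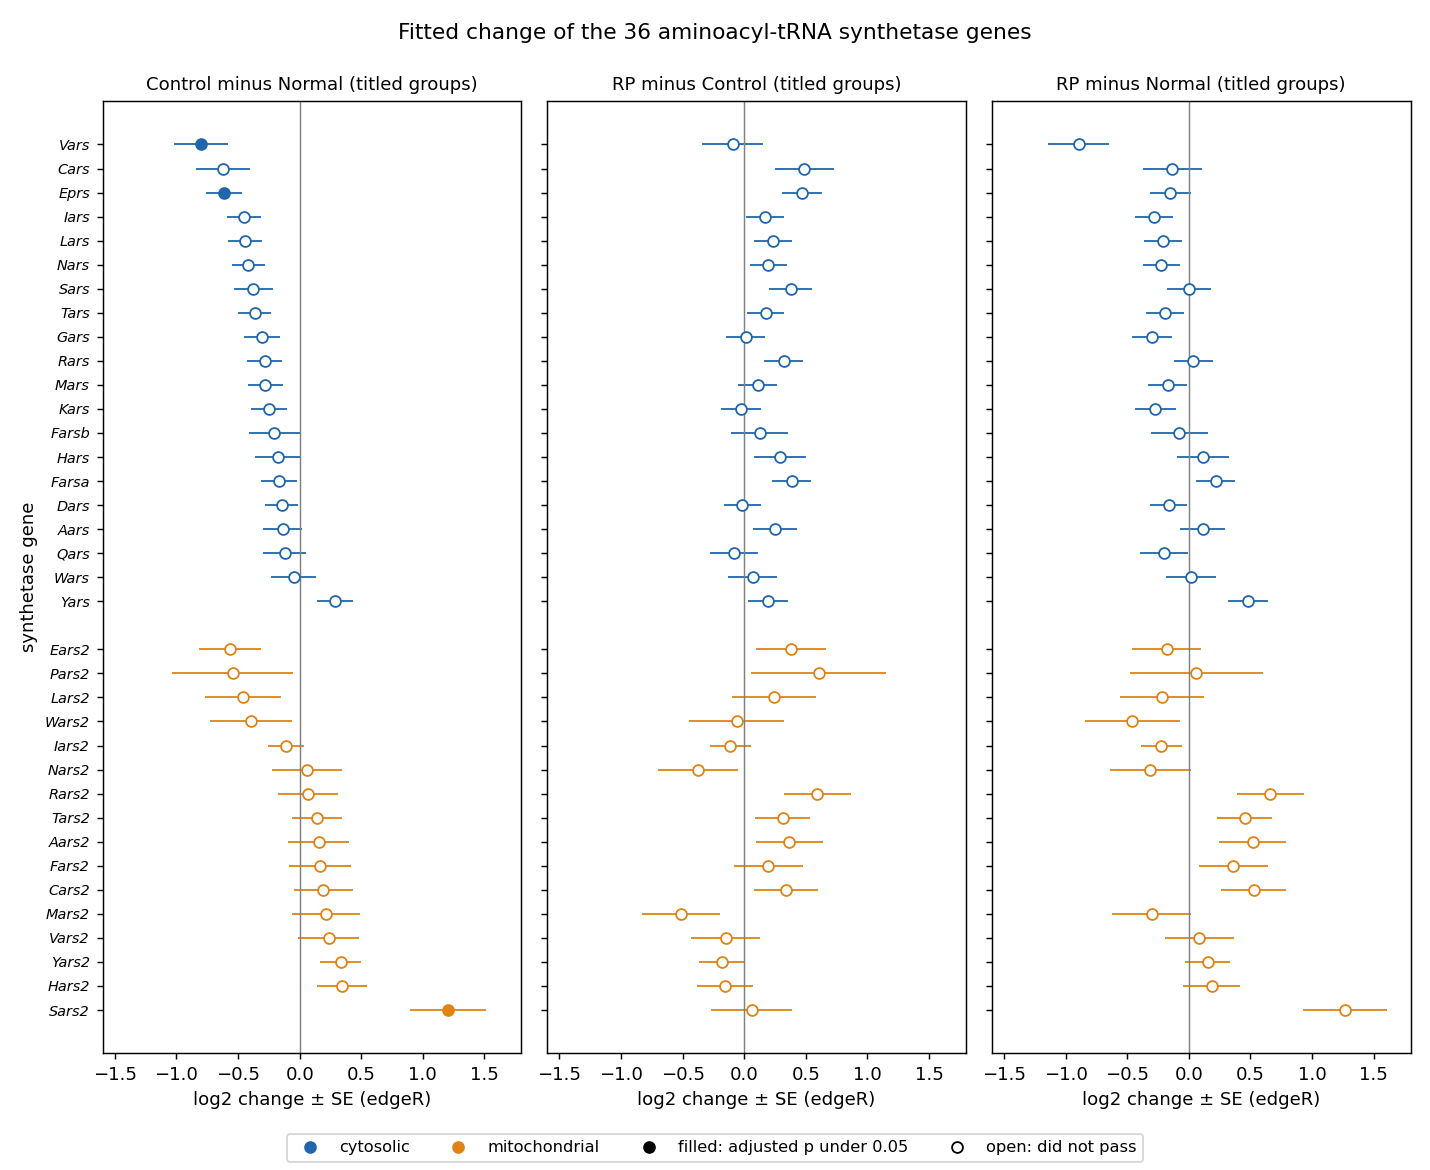
Fitted log2 change with its standard error (horizontal axis) for the 20 cytosolic (blue) and 16 mitochondrial (orange) synthetase genes, ordered within each class by the Control minus Normal change, in 3 comparisons of titled groups. Filled points passed the adjusted p threshold of 0.05: Vars, Eprs and Sars2 in Control minus Normal and no member in the RP comparisons.

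Eprs encodes glutamyl-prolyl-tRNA synthetase, which joins the glutamyl and the prolyl enzyme in 1 protein and belongs to the multi-synthetase complex. It lies on chromosome 1 from 185363044 to 185428360 (mm10, plus strand), with no overlapping exon of another gene. Eprs had 209.6 and 201.7 CPM in RP libraries, 133.9, 176.5 and 136.2 CPM in Control libraries and 226.5, 227.2 and 230.6 CPM in Normal libraries. All 3 Control libraries lay below both RP libraries, and both RP libraries lay below all 3 Normal libraries. Its means were 148.9 ± 24.0 CPM in Control and 228.1 ± 2.23 CPM in Normal libraries (SD, n = 3 each), a log2 change of −0.62 (SE 0.146, edgeR adjusted p = 0.0169). The call was lost without Control 1 (edgeR adjusted p = 0.113), without Control 3 (0.101) and without Normal 2 (0.0536). It was also lost with log2 Hba-a1, a haemoglobin gene, as a covariate (edgeR adjusted p = 0.200). In that fit the log2 change of Eprs was −0.60, near the main value, with a larger SE of 0.240. Over 18 alternatives its log2 change lay between −0.74 and −0.54 and its adjusted p between 0.00121 and 0.200.

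Vars encodes the cytosolic valyl-tRNA synthetase and lies on chromosome 17 from 35000987 to 35016322 (mm10, plus strand), with no overlapping exon. It had 15.2 and 14.1 CPM in RP libraries, 13.9, 15.9 and 17.1 CPM in Control libraries and 17.9, 30.0 and 33.9 CPM in Normal libraries. RP and Control libraries overlapped, and Normal 1 lay close to them while Normal 2 and 3 stood well above. Its log2 change was −0.80 between Control and Normal (SE 0.218, edgeR adjusted p = 0.0333). The call ended without any 1 of Control 1, 2 or 3 (edgeR adjusted p = 0.141, 0.101 and 0.0852), without Normal 2 (0.114) or Normal 3 (0.0851), and in limma-voom (0.0526). With Hba-a1 as a covariate the log2 change was −0.24 (adjusted p = 0.760), the smallest of the 18 alternatives, which reached −1.03 and an adjusted p of 0.00122 at the other end.

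Sars2 encodes the mitochondrial seryl-tRNA synthetase and lies on chromosome 7 from 28741992 to 28753871 (mm10, plus strand), with no overlapping exon. It had 5.60 and 5.86 CPM in RP libraries, 7.14, 4.90 and 4.43 CPM in Control libraries and 2.97, 2.01 and 2.14 CPM in Normal libraries. These rest on 52 and 57 reads in RP, 81, 49 and 49 in Control, and 33, 21 and 22 in Normal libraries. Every tumour-bearing library, RP or Control, lay above every Normal library. The log2 change was 1.21 between Control and Normal (SE 0.310, edgeR adjusted p = 0.0257). It missed the threshold without Control 1 (edgeR adjusted p = 0.146), Normal 2 (0.0883) or Normal 3 (0.0521) and with Hba-a1 as a covariate (log2 change 0.95, adjusted p = 0.365), within a range of 0.0111 to 0.365 over 17 alternatives. Sars, which encodes the cytosolic seryl enzyme, had a log2 change of −0.38 (SE 0.16, edgeR adjusted p = 0.156), in the other direction.

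**Figure D2:**
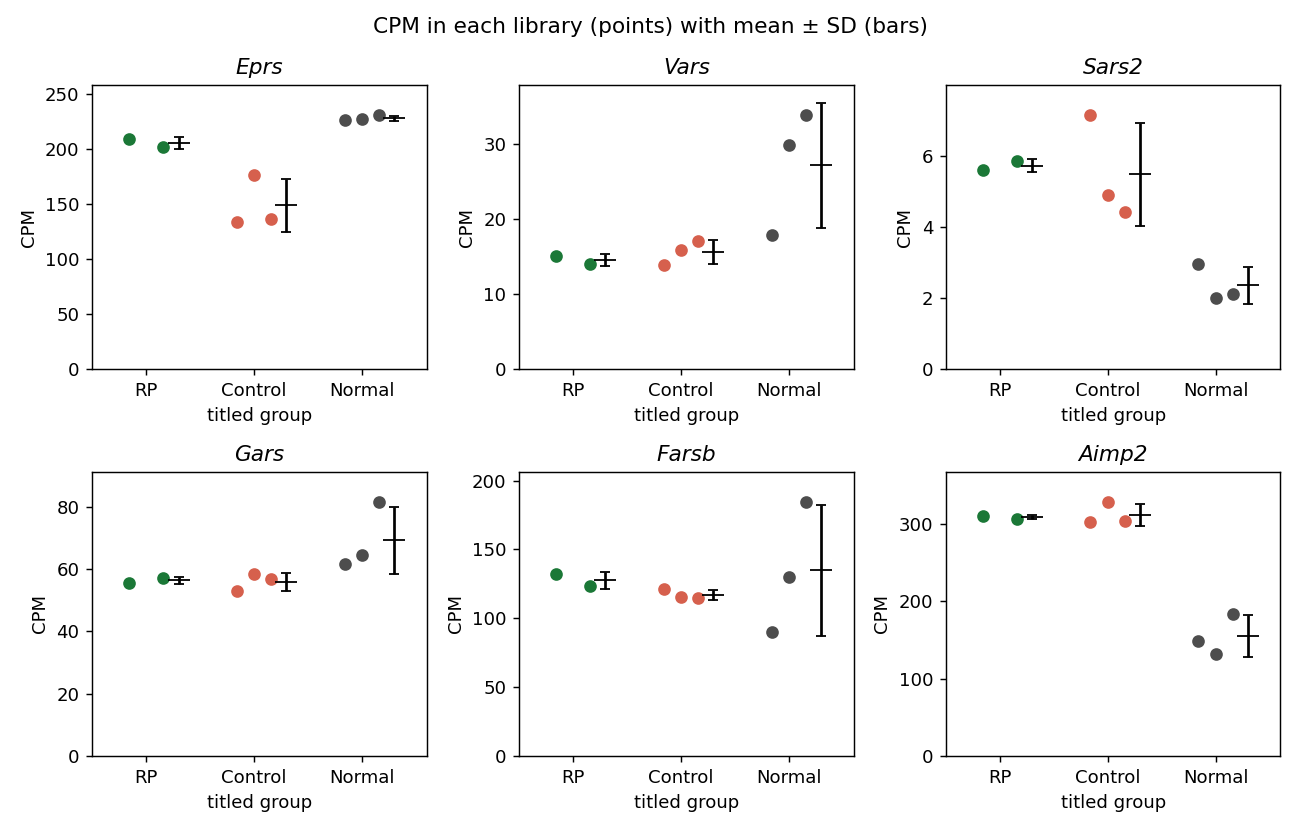
CPM in each library (points), with mean ± SD (black bars; n = 2 RP, 3 Control, 3 Normal), for 5 synthetase genes and Aimp2, a scaffold protein of the multi-synthetase complex. Eprs is lowest in Control, Vars is highest in Normal 2 and 3, Sars2 and Aimp2 are lowest in Normal, Gars is highest in Normal 3, and Farsb runs from 90.3 to 184.3 CPM among Normal libraries.

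Gars and Kars, the genes that serve both compartments, did not pass. Gars had 55.6 and 57.2 CPM in RP, 52.8, 58.4 and 56.7 CPM in Control and 61.6, 64.6 and 81.4 CPM in Normal libraries, so that every Normal library was above the others (Control minus Normal log2 change −0.31, SE 0.144, edgeR adjusted p = 0.195). Kars had 65.4 and 74.1 CPM in RP, 70.1, 71.9 and 71.0 CPM in Control and 70.6, 85.9 and 96.2 CPM in Normal libraries, which overlapped (−0.25, SE 0.145, adjusted p = 0.306). With Hba-a1 as a covariate the change of Gars was −0.015 and that of Kars 0.14, both far from the threshold (edgeR adjusted p = 0.980 and 0.761).

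Farsa and Farsb encode the alpha and beta subunits of the cytosolic phenylalanyl enzyme, which works as a tetramer of both. Farsa had 62.1 and 49.97 CPM in RP, 42.2, 47.6 and 39.0 CPM in Control and 45.4, 51.9 and 47.3 CPM in Normal libraries. Both RP libraries lay above all Control libraries, while Control and Normal overlapped. Farsb had 131.9 and 123.2 CPM in RP, 121.0, 115.4 and 114.5 CPM in Control and 90.3, 129.7 and 184.3 CPM in Normal libraries, a spread among Normal libraries that took in all the others. Neither subunit passed in any comparison (smallest edgeR adjusted p 0.512 for Farsa and 0.580 for Farsb). Wars, the tryptophanyl enzyme and known to be induced by interferon, had 19.3 and 17.9 CPM in RP, 15.6, 16.2 and 21.3 CPM in Control and 20.96, 16.9 and 17.1 CPM in Normal libraries. The Wars levels overlapped in every comparison, with log2 changes of −0.050, 0.069 and 0.019 in Control minus Normal, RP minus Control and RP minus Normal.

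The other cytosolic members missed the threshold in Control minus Normal with edgeR adjusted p values of 0.0561 (Iars, isoleucyl) upward. Several members were picked out after their values were seen. Iars, Lars (leucyl), Nars (asparaginyl) and Cars (cysteinyl) had log2 changes of −0.45, −0.44, −0.42 and −0.62, with edgeR adjusted p of 0.0561, 0.0572, 0.0675 and 0.0872. Yars, the tyrosyl enzyme, was the exception in direction. It had 36.2 and 33.7 CPM in RP, 30.25, 33.5 and 27.9 CPM in Control and 26.3, 22.6 and 26.1 CPM in Normal libraries, with no overlap in any pair of groups and no call (log2 change 0.29 between Control and Normal, SE 0.147, edgeR adjusted p = 0.232). Lars2, the mitochondrial leucyl enzyme, had 30.4 CPM in Normal 3 and 11.8 to 16.3 CPM in the other 7 libraries, so its Control minus Normal log2 change of −0.46 (SE 0.305, adjusted p = 0.369) rested on Normal 3.

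Mitochondrial members were counted less deeply than cytosolic ones. Counts per gene and library ran from 16 to 607 in the mitochondrial class and from 112 to 2517 in the cytosolic class. The median standard error of the Control minus Normal log2 change was 0.249 over mitochondrial and 0.146 over cytosolic members. Apart from Sars2, the larger positive changes were 0.34 in Hars2 (edgeR adjusted p = 0.313) and 0.33 in Yars2 (0.221), and neither passed.

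**Figure D3:**
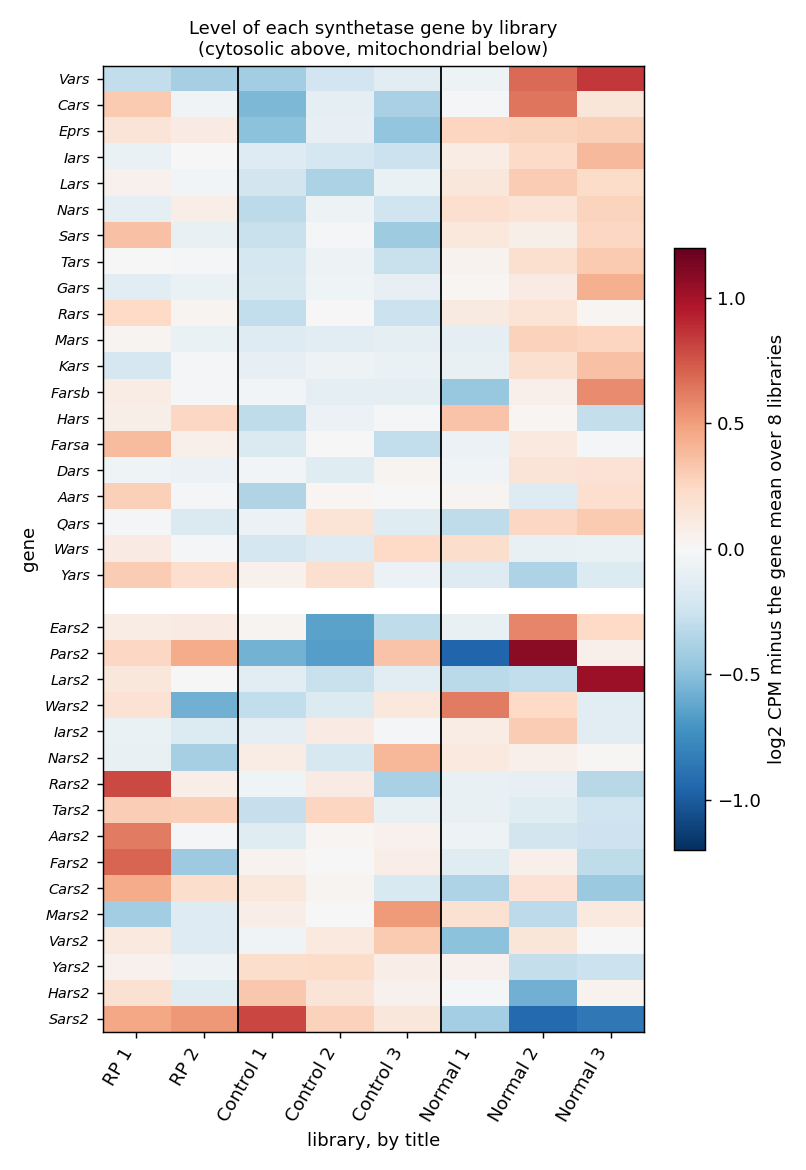
Log2 CPM of each synthetase gene in each library minus the gene's mean over the 8 libraries (colour; red higher, blue lower), cytosolic genes above and mitochondrial below, with libraries grouped by title. Most cytosolic rows are bluest in the Control columns and reddest in Normal 2 and 3, while the mitochondrial rows vary more from gene to gene.

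Each member's level was centred on its mean over the 8 libraries on the log2 CPM scale, and the centred levels were averaged over a class. The cytosolic level was 0.075 and −0.016 in RP libraries, −0.226, −0.075 and −0.159 in Control libraries and 0.014, 0.162 and 0.225 in Normal libraries. All Control libraries lay below both RP libraries and all Normal libraries, and RP and Normal libraries overlapped. The mitochondrial level was 0.232 and −0.029 in RP, 0.005, −0.041 and 0.060 in Control and −0.124, −0.014 and −0.090 in Normal libraries. The groups of the mitochondrial level overlapped, and RP 1 stood above every other library. Control had the lowest group mean in 15 of 20 cytosolic and 3 of 16 mitochondrial members, while Normal had the lowest in 1 and 9.

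Among the Normal libraries the cytosolic level ranked as the haemoglobin share did, which was 4.57, 9.56 and 19.7% in Normal 1, 2 and 3. Among Control libraries that share stayed within 1.41 to 1.61% and the cytosolic level within −0.226 to −0.075. With Hba-a1 as a covariate, 0 members of either class passed in edgeR in Control minus Normal. Of all genes 2.32% passed, against 10.4% without the covariate. Haemoglobin shares of Control and Normal libraries did not overlap, so calls lost in that fit cannot be assigned to haemoglobin. The class medians in that fit were −0.23 for cytosolic and 0.047 for mitochondrial members. Removing haemoglobin genes and Rn45s from the tables left the calls of Eprs, Vars and Sars2 in place.

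**Figure D4:**
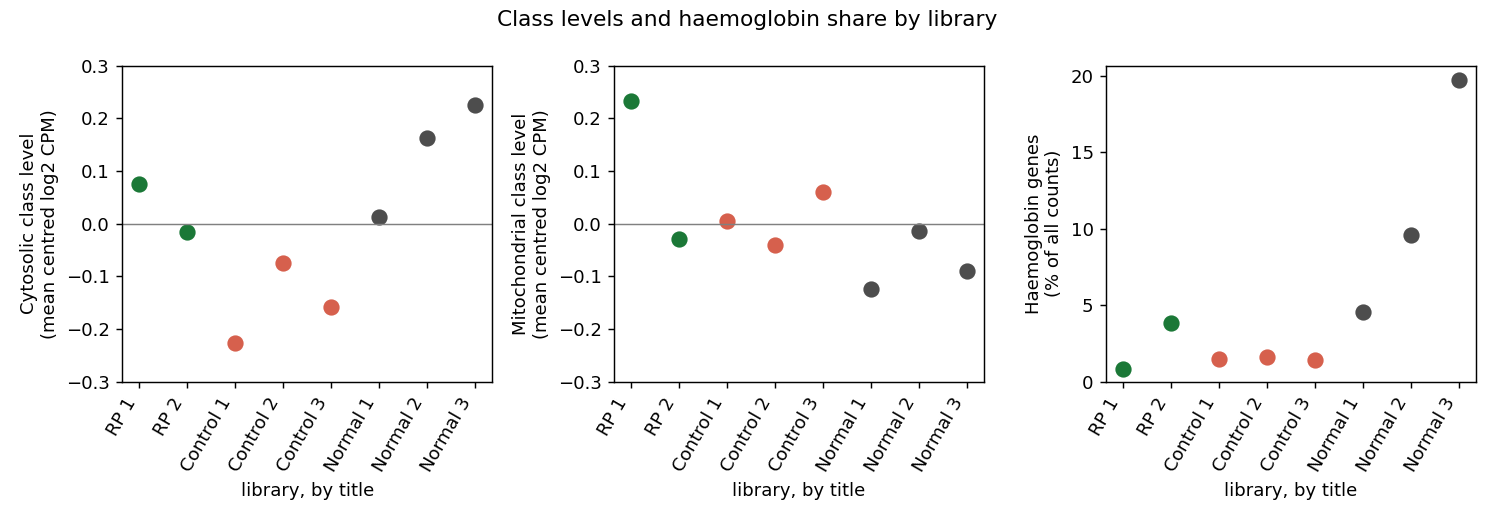
Mean centred log2 CPM of the 20 cytosolic genes (left) and the 16 mitochondrial genes (middle), and the percentage of all counts from haemoglobin genes (right), in each library by title. The cytosolic level is below 0 in all 3 Control libraries and highest in Normal 3, the library with the highest haemoglobin share of 19.7%.

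The enzymes for 16 amino acid pairings of a cytosolic with a mitochondrial gene allowed the classes to be set side by side (Eprs enters for glutamate and for proline, and Farsa stands for phenylalanine). In Control minus Normal, 10 pairs had a negative cytosolic and a positive mitochondrial change, 5 had both negative, 1 (tyrosine) had both positive and 0 had the reverse. The gap between mitochondrial and cytosolic log2 change was widest for serine (1.58) and valine (1.04). For glutamate, proline and leucine both changes were negative and of like size, for example −0.62 in Eprs and −0.56 in Ears2. In RP minus Control, 9 pairs had both positive, 6 had a positive cytosolic and a negative mitochondrial change, and only valine had both negative.

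**Figure D5:**
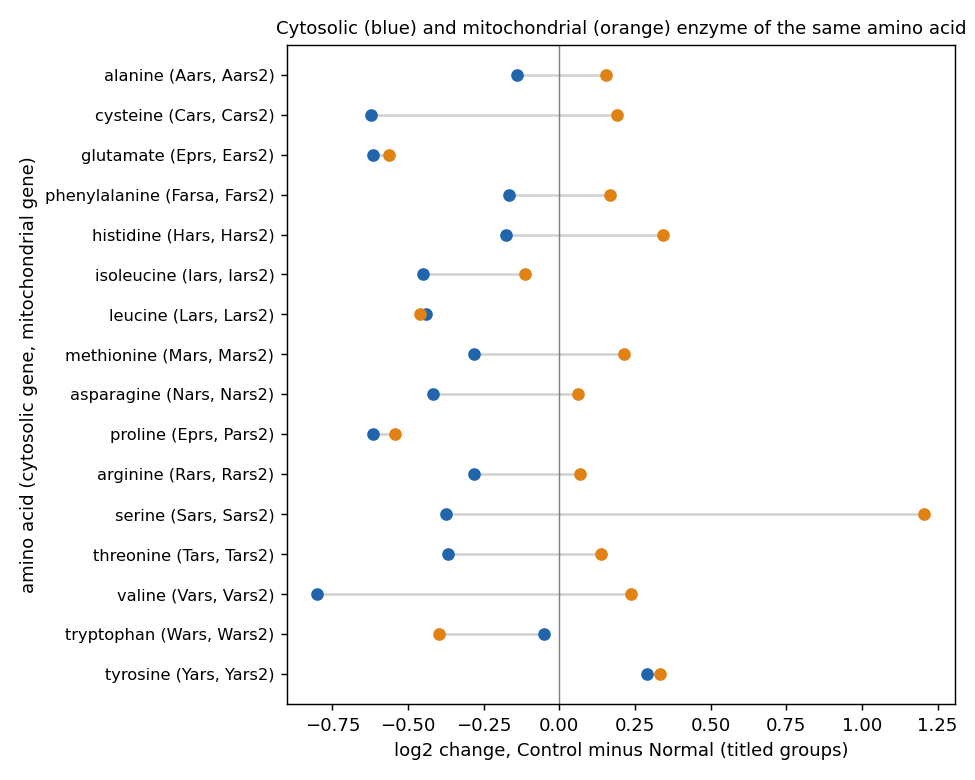
Control minus Normal log2 change (horizontal axis) of the cytosolic (blue) and the mitochondrial (orange) gene for each of 16 amino acids, joined by a grey line. In 10 amino acids the blue point lies left of 0 and the orange point right of it, with the widest gap for serine.

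The comparison of RP with Control libraries addressed the extract in tumour-bearing mice. No synthetase gene passed: 0 of 20 cytosolic and 0 of 16 mitochondrial members by edgeR, and also 0 in DESeq2 and in limma-voom, against 0.175% of all tested genes by edgeR (0.144% higher and 0.0304% lower). At an unadjusted p under 0.05 there were 2 cytosolic members and 1 mitochondrial member, beside 8.98% of all tested genes. Cytosolic levels were mostly higher in RP than in Control libraries, with a positive log2 change in 16 of 20 members (49.5% of all genes were positive and 50.5% negative) and a median of 0.18 (−0.00382 over all genes). RP and Control libraries did not overlap in 11 cytosolic members with higher RP levels and in 0 with lower ones, beside 15.3% and 16.4% of all genes.

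Eprs had the smallest p among cytosolic members in RP minus Control, with a log2 change of 0.47 (SE 0.161, edgeR adjusted p = 0.388). Farsa followed at 0.38 (SE 0.162, adjusted p = 0.518). Vars had −0.095 and Sars2 0.060, with overlapping libraries in both. Among mitochondrial members 9 changes were positive and 7 negative with a median of 0.13. Rars2, the mitochondrial arginyl enzyme and the one with the smallest mitochondrial p, had 14.2 and 8.64 CPM in RP against 7.85, 8.70 and 6.15 CPM in Control libraries (0.59, SE 0.269, edgeR adjusted p = 0.549). RP 1 set the mitochondrial median, which was −0.076 without RP 1 and 0.30 without RP 2.

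The comparison of RP with Normal libraries shares its libraries with the other comparisons and is no independent repeat of either. By edgeR 0 of 20 cytosolic and 0 of 16 mitochondrial members passed, against 2.5% of all genes (1.67% higher and 0.835% lower), with 2 of each class at an unadjusted p under 0.05, beside 17.1% of all genes. DESeq2 called 1 of each, Vars and Sars2, and limma-voom 0. Cytosolic changes were negative in 13 of 20 members and mitochondrial ones positive in 10 of 16, where 46.2% of all genes were positive and 53.8% negative. RP and Normal libraries did not overlap in 1 cytosolic member with higher and 8 with lower RP levels, and in 5 and 1 mitochondrial members, beside 15.4% of all genes in each direction. The mitochondrial median was 0.12, but −0.023 without RP 1 and 0.22 without Normal 3. Vars had a log2 change of −0.89 (SE 0.250, edgeR adjusted p = 0.0817) and Sars2 of 1.27 (SE 0.340, adjusted p = 0.0718). Both passed in edgeR without Normal 1, at adjusted p of 0.00389 for Vars and 0.0399 for Sars2.

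The 8 synthetase genes of the multi-synthetase complex (Dars, Eprs, Iars, Kars, Lars, Mars, Qars and Rars) all had negative log2 changes in Control minus Normal, from −0.62 to −0.12 with a median of −0.28. Of these 0 were higher and 1, Eprs, lower by edgeR, beside 4.99% and 5.45% of all genes. Its scaffold gene Aimp2 went the other way. Aimp2 had 310.6 and 307.1 CPM in RP, 303.3, 328.3 and 303.9 CPM in Control and 149.5, 132.2 and 184.4 CPM in Normal libraries. It was thus higher in every tumour-bearing library, 2.01-fold in Control over Normal (log2 change 1.00, SE 0.151, edgeR adjusted p = 0.00121) and 1.99-fold in RP over Normal (0.99, SE 0.165, adjusted p = 0.00682). The RP minus Normal call was lost without RP 1 (edgeR adjusted p = 0.083), with Hba-a1 as a covariate (log2 change 1.17, adjusted p = 0.0568) and with only the groups compared in the fit (0.0537). The 3′ end of Aimp2 overlaps that of Eif2ak1 on the opposite strand, and the counted strand is not given in the sources used here, so reads of both genes cannot be told apart. Eif2ak1, the haem-regulated kinase of eIF2alpha, also rose in Control (log2 change 0.70, SE 0.160, edgeR adjusted p = 0.0143), a call lost without Control 1, 2 or 3 or Normal 2 (0.0608, 0.0587, 0.0507 and 0.0714) and with Hba-a1 as a covariate (log2 change 0.99, adjusted p = 0.0667). The other scaffold genes, Aimp1 and Eef1e1, had Control minus Normal log2 changes of −0.022 and 0.073 (edgeR adjusted p = 0.949 and 0.847).

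The 12 synthetase genes known as ATF4 targets were Aars, Cars, Eprs, Gars, Iars, Lars, Mars, Nars, Sars, Tars, Wars and Yars. Their Control minus Normal change was negative in 11 cases, with a median of −0.37. Over all cytosolic members it was negative in 19 of 20, with a median of −0.28. Of the 12 genes 0 passed higher and 1 lower, beside 4.99% and 5.45% of all genes. In RP minus Control all 12 changes were positive, from 0.011 to 0.49 with a median of 0.19. Over all cytosolic members 16 of 20 were positive, with a median of 0.18. Of the 12 genes 0 passed by edgeR (1 at an unadjusted p under 0.05, beside 8.98% of all genes). By catalytic fold in Control minus Normal, class I genes counted 0 higher and 1 lower of 9 (Vars, median −0.28). Class II genes counted 0 of 10 either way, with a median of −0.23 and all 10 negative. Both counts stand beside 4.99% of all genes higher and 5.45% lower. At an unadjusted edgeR p under 0.05 there were 4 class I and 3 class II genes, beside 26.3% of all genes.

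Atf4 itself and several of its targets in the amino acid response were lower in Control than in Normal libraries. Of 33 listed genes 28 were tested, and in Control minus Normal 2 were higher and 10 lower by edgeR, 42.9% of those tested against 10.4% of all genes. Atf4 had 363.1 and 359.6 CPM in RP, 361.9, 334.3 and 305.3 CPM in Control and 494.6, 540.4 and 524.7 CPM in Normal libraries (Control minus Normal log2 change −0.64, SE 0.135, adjusted p = 0.00914). Slc7a5 and Slc38a2, amino acid transporters, fell by 3.24 and 2.31 on the log2 scale, although Slc7a5 rests on 1 to 3 reads in each Control library. Eif4ebp1, an inhibitor of cap-dependent translation, fell by 2.01 and Ddit4, an inhibitor of mTORC1, by 1.34. Asns, asparagine synthetase, fell by 1.29 (SE 0.316, edgeR adjusted p = 0.0206). The higher genes were Nupr1, a stress-induced chromatin protein, at 0.89, and Chac1, a glutathione-degrading enzyme, at 1.30, the last picked out after its values were seen. With Hba-a1 as a covariate Atf4 had a log2 change of −0.60 (SE 0.214, edgeR adjusted p = 0.154), Asns of −1.69 (SE 0.530, 0.113), Slc7a5 of −2.85 (SE 1.19, 0.214) and Ddit4 of −1.47 (SE 0.414, 0.0825), so that changes of like size no longer passed with larger standard errors. Nupr1 had 0.55 (adjusted p = 0.230), while Slc38a2 (0.00306) and Eif4ebp1 (0.0314) passed. The call of Atf4 was also lost without Control 3 (0.0678), and that of Asns without Control 1, Control 2 and Normal 2 (0.105, 0.0848 and 0.0549).

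In RP minus Control 0 of the 28 response genes passed by edgeR and 5 had an unadjusted p under 0.05 (8.98% of all genes). Slc38a2 had 196.6 and 199.9 CPM in RP against 56.8, 68.5 and 60.2 CPM in Control libraries, without overlap (log2 change 1.68, SE 0.336, edgeR adjusted p = 0.0755). It passed without Normal 1 (edgeR adjusted p = 0.0186), without Normal 3 (0.000161), with Hba-a1 as a covariate (0.0176), with no filter (1.07e-06) and with only RP and Control in the fit (4.9e-05), and did not in the other 13 alternatives. In RP minus Normal 1 was higher (Nupr1) and 2 were lower (Eif4ebp1 and Slc7a5), beside 1.67% and 0.835% of all genes. Without RP 1 none of these 3 passed (edgeR adjusted p = 0.263 for Nupr1, 0.0943 for Eif4ebp1 and 0.269 for Slc7a5). Eif4ebp1 and Slc7a5 also missed the threshold without RP 2 (log2 changes −1.35 and −3.04). Slc7a5 missed it in edgeR without Control 1, 2 or 3 (0.0626, 0.0642 and 0.0706) or Normal 2 or 3 (0.123 and 0.0531). With Hba-a1 as a covariate none of the 3 passed (edgeR adjusted p = 0.288 for Nupr1, 0.190 for Eif4ebp1 and 0.233 for Slc7a5). With only RP and Normal in the fit, Nupr1 (0.0865) and Slc7a5 (0.0926) did not pass by edgeR. Slc7a5 also missed the threshold in limma-voom (adjusted p = 0.095).

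Among 8 genes for eIF2alpha kinases and their regulators, Impact passed in both contrasts with the Control libraries. By edgeR 1 of the 8 was higher (Eif2ak1) and 1 lower (Impact) in Control minus Normal, beside 4.99% and 5.45% of all genes. In RP minus Control 1 was higher (Impact) and 0 lower, beside 0.144% and 0.0304% of all genes. In RP minus Normal 0 passed, beside 2.5% of all genes. Impact encodes an inhibitor of GCN2, the kinase that senses uncharged tRNA. It had 34.6 and 32.6 CPM in RP, 11.2, 9.70 and 8.95 CPM in Control and 28.25, 30.0 and 18.0 CPM in Normal libraries. Control libraries were the lowest, with no overlap with either group. Impact was 3.37-fold higher in RP than in Control libraries (log2 change 1.75, SE 0.221, edgeR adjusted p = 0.00425) and 2.55-fold lower in Control than in Normal libraries (−1.35, SE 0.204, adjusted p = 0.00125). Both calls held in all 18 alternatives, with adjusted p up to 0.0497 for RP minus Control and 0.0150 for Control minus Normal. These contrasts share the Control libraries. Eif2ak4, which encodes GCN2, had Control minus Normal and RP minus Control log2 changes of −0.30 and 0.17 (edgeR adjusted p = 0.576 and 0.929).

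Genes tested for nuclear and cytosolic tRNA maturation and export numbered 28. In Control minus Normal 9 of them had an unadjusted edgeR p under 0.05, beside 26.3% of all genes. After adjustment 0 were higher and 1 lower, 3.57% of those tested beside 10.4% of all genes. That gene was Nsun2, a tRNA cytosine methyltransferase, with 57.3 and 64.6 CPM in RP, 46.0, 51.9 and 49.8 CPM in Control and 65.4, 88.6 and 123.2 CPM in Normal libraries (log2 change −0.91, SE 0.196, edgeR adjusted p = 0.0104). Its levels in Normal libraries rank as their haemoglobin shares do, and with Hba-a1 as a covariate the change was −0.19 (adjusted p = 0.737). The call was lost too without Control 1 (edgeR adjusted p = 0.0608) or Control 3 (0.0525). No gene passed by edgeR among 11 for mitochondrial tRNA maturation, 4 for mitochondrial amidation and formylation and 7 for other charging and proofreading steps. At an unadjusted p under 0.05 these held 0, 2 and 2 genes, beside 26.3% of all genes.

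The 3′ ends of some members limit their counts. In the GENCODE M21 annotation of mm10, the last 500 bases of Aars overlap Exosc6 on the same strand, and those of Farsb, Mars, Yars, Cars2, Fars2 and Iars2 overlap a gene on the opposite strand. Cars and Iars share stretches of their 3′ ends with other genes. Levels of these 9 members are uncertain to that extent.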

How the data were processed

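Gastrocnemius RNA was made into QuantSeq 3′ libraries from 500 ng of total RNA, per the labels' protocols. The deposited tables hold raw counts per gene symbol, 1 library each and without normalization, and mm10, Bowtie2 and edgeR appear in the submitters' processing notes. The counting tool, strand and annotation are not given in the sources used here. Each table held 23282 rows, none without a gene name, with 35 symbols listed more than once (44 extra rows), kept apart. Total counts were 9528011 to 12333767 per library.

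Counts were tested with edgeR 4.0.16 in R 4.3.3 (quasi-likelihood test, TMM, filterByExpr defaults with a minimum count of 10 and a minimum total of 15, all 8 libraries in 1 fit by titled group, common biological coefficient of variation 0.195). All p-values were 2-sided and adjusted by Benjamini-Hochberg across the 13174 genes tested, at a threshold of 0.05. Standard errors were derived from the F statistics. CPM used TMM-scaled library sizes, and centred log2 CPM a prior count of 2. No p was computed for a class or list. Positions and overlaps came from GENCODE M21 and promoter windows from RefSeq. Alternatives included DESeq2 1.42.0, limma-voom (limma 3.58.1), other normalizations and filters, a replicate block, Hba-a1 as a covariate and leaving out each library. With 1 RP library left out, the remaining one is assumed to share the spread of the Control and Normal groups. The main edgeR fit was tested on simulated data holding known fold changes, and the alternative fits were not.

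Members and gene lists were chosen with earlier results of these data known. Values in every library are given for members that passed in a comparison and for Gars, Kars, Farsa, Farsb, Eprs and Wars. Of each related list, up to 4 genes that passed in a comparison, by size of change, are named, with Atf4, Asns, Aimp1, Aimp2, Eef1e1 and Eif2ak4. Figures were drawn with matplotlib 3.10.9.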

Additional observations from a re-analysis of the deposited data

How the results depend on the processing

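No called change of a named gene changed sign under any alternative, but 22 of 66 changes of named genes, none of them called, took both signs. Among these, Farsb and Kars ran from −0.43 to 0.42 and from −0.36 to 0.14 in Control minus Normal. Of 1177 alternative values of named genes, 1104 kept their side of the threshold, 53 lost a call and 20 gained one. In Control minus Normal the cytosolic count of 2 became 6 at an adjusted p under 0.1, 4 in DESeq2, 1 in limma-voom and 0 with Hba-a1 as a covariate. Leaving out 1 library gave 0 to 7: it was 0 without Control 1, Control 3 or Normal 2, 1 without Control 2 or Normal 3, and 7 without Normal 1. The mitochondrial count of 1 was 0 with the covariate, 0 at a mean CPM of at least 5 (where Sars2 was not tested), and 0 to 1 with a library left out. In RP minus Normal the count of 0 in each class became 1 at an adjusted p under 0.1, in DESeq2 and with no filter, and 0 to 1 with a library left out. In RP minus Control it was 0 under every alternative.

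The cytosolic median of −0.28 in Control minus Normal ran from −0.39 to −0.24 with a library left out. The mitochondrial median of 0.15 was 0.047 with the covariate and 0.086 to 0.16 with a library left out. In RP minus Control and RP minus Normal the mitochondrial median ran from −0.076 to 0.30 and from −0.023 to 0.22, turning negative without RP 1. The causes were not tested.

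Same-numbered libraries did not clearly deviate together (r −0.068 to 0.080 over 7 pairs, beside −0.080 to 0.068 over 14 pairs of unlike number). Deviations from a group mean are tied to each other in groups this small. These r values therefore cannot settle whether the numbers pair the samples. With the replicate block Eprs (−0.62, edgeR adjusted p = 0.0301), Vars (−0.77, 0.0275) and Sars2 (1.199, 0.0317) still passed in Control minus Normal, and the block changed no member's call. Of related genes it ended the RP minus Normal calls of Nupr1 (0.0539) and Slc7a5 (0.103). No scaling moved the median of all genes by over 0.1.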
